A study of Mus musculus with 16 samples.

Results

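Ucp1, Cidea, Cox8b, Cox7a1, Elovl3, Dio2, Ppargc1a, Prdm16, Kcnk3 and Cpt1b are 10 genes that mark thermogenic (brown and beige) fat. They were taken by name from a gene count table of 54752 gene identifiers and followed across 16 RNA-seq libraries of mouse inguinal white adipose tissue (iWAT). The libraries came from mice on a C57BL/6J background, aged 90 days and all labelled female, of 4 genotypes with 4 libraries for each. WT mice carried neither allele. Lepob/+ mice were heterozygous for the ob mutation of the leptin gene. SOD1G93A mice carried a human mutant SOD1 transgene that is a model of amyotrophic lateral sclerosis. SOD1G93A-Lepob/+ mice carried both. The transgene is human, present in many copies and broadly expressed, and was not checked in these counts. The ob allele still gives a leptin transcript, so the level of leptin RNA does not check that genotype: Lep was at 202 to 682 CPM in WT and at 181 to 687 CPM in Lepob/+ libraries. CPM is the read count relative to the size of the library, after scaling by the trimmed mean of M-values (TMM). The study set each heterozygote against its own control, to ask what the loss of 1 leptin allele does to the fat of healthy and of diseased mice.

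Beige adipocytes are heat-producing cells scattered in subcutaneous white depots such as iWAT, where cold and noradrenaline recruit them. Noradrenaline acts on beta-adrenergic receptors, raises cyclic AMP and switches on coactivators such as PGC-1alpha (Ppargc1a), which in turn raise mitochondrial genes and UCP1, the protein that lets protons leak back across the inner mitochondrial membrane as heat. Several genes used as beige markers encode mitochondrial proteins that skeletal muscle also makes, among them Cox8b, Cox7a1 and Cpt1b, so a piece of muscle in a fat sample can look like browning. Acta1, the skeletal muscle actin, was therefore read beside every gene. In bulk tissue, fewer cells of a type and less RNA per cell cannot be told apart.

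The promoters of 4 of the genes are shown first, as the regulatory sequence of the uncoupler, of a gene that answers cyclic AMP and of the 2 oxidase subunits shared with muscle. Each window runs from 250 bases before to 50 bases after the RefSeq start, on the strand of the gene, from GRCm38.p6. A window was found for 6 of the 10 genes. Capitals mark matches, on either strand, to 4 short motifs: the cyclic AMP response element TGACGTCA, the E-box CAGCTG that myogenic factors bind, the nuclear receptor half-site AGGTCA and the TATA box TATAAA.

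Ucp1, chr8:83290098-83290397, plus strand: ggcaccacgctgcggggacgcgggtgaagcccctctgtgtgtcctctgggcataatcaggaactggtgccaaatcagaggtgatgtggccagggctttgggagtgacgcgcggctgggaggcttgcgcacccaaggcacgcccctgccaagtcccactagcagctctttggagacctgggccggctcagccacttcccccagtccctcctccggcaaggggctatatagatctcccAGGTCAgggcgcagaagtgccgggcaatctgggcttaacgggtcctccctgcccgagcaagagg
Dio2, chr12:90738989-90739288, minus strand: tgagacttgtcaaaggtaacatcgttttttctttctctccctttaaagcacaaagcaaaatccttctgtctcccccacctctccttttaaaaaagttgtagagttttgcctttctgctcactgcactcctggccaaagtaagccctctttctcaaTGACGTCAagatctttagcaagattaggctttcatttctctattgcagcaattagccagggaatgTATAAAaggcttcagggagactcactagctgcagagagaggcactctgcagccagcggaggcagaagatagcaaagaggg
Cox8b, chr7:140900397-140900696, minus strand: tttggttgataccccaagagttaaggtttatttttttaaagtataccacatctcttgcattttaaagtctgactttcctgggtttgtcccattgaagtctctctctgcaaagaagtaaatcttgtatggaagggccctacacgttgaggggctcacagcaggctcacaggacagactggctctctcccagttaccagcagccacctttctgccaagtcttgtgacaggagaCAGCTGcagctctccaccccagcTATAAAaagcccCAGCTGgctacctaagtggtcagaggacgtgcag
Cox7a1, chr7:30183921-30184220, plus strand: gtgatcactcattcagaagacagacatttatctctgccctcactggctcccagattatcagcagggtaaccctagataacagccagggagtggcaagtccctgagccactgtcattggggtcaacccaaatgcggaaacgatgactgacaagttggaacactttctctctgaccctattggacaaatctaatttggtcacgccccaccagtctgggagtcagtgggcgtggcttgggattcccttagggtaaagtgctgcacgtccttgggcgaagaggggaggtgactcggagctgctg

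The Dio2 window held the cyclic AMP element, whose first base lies 95 bases before the start. That motif was in 1.79% of the 32851 mouse windows of the same length. The Cox8b window held the E-box at 2 places, and 16.3% of all windows held it at least once. The Ucp1 window held 1 half-site, 14 bases before the start, and 16.3% of windows held a half-site. None of the 4 motifs was in the Cox7a1 window, which says only that these letters are not there. The RefSeq start of Dio2 lies outside the GENCODE gene used for counting its exon length.

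The libraries held between 36.8 M and 61.9 M counted reads. Adipoq, Plin1 and the other genes of a list of 15 mature adipocyte genes were expressed in all of them and summed to between 27200 and 61470 CPM. Transcripts of other tissues differed far more. The sum of a list of 25 skeletal muscle genes was 282000 CPM in Lepob/+ replicate 4 and 7355 CPM in WT replicate 3, against 64.7 to 490 CPM in the other 14 libraries. All 15 genes of a lymph node list were at least 2-fold above their 16-library median in 6 libraries, namely WT replicates 1 and 2, Lepob/+ replicate 3 and SOD1G93A replicates 1, 2 and 4, whose list sums were 1316 to 3202 CPM, against 12.9 to 36.5 CPM in the other 10. The Xist count was 0 in SOD1G93A-Lepob/+ replicate 3, which allows up to 0.068 CPM, and 396 to 559 CPM elsewhere. The same library alone held counts of the Y-linked genes Ddx3y (13.6 CPM), Eif2s3y (16.1 CPM), Kdm5d (5.19 CPM) and Uty (4.92 CPM), which goes against its label as female. SOD1G93A replicate 4 held skin keratin (Krt10 at 99.3 CPM, 1.99 to 4.55 CPM elsewhere). None of these libraries was left out of the main fit.

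Ucp1, which encodes the uncoupling protein that defines thermogenic fat, had the widest range of the 10 genes apart from Elovl3, which reached 0. In the 4 WT libraries it was at 2.56, 1.48, 1.94 and 3.25 CPM, the narrowest range of the 4 genotypes. In Lepob/+ libraries it was at 1.03, 1.91, 313 and 0.833 CPM, that is, 3 libraries were inside or below the WT range and replicate 3 was far above every other library of the series. In SOD1G93A libraries it was at 75.6, 7.23, 3.16 and 24.1 CPM, with 3 of 4 above all WT libraries and replicate 3 inside the WT range. In SOD1G93A-Lepob/+ libraries it was at 0.819, 0.175, 27.9 and 3.65 CPM, with replicate 3 and, by a small margin, replicate 4 above all WT libraries. The mean was 2.31 ± 0.77 CPM for WT, 79.1 ± 156 for Lepob/+, 27.5 ± 33.3 for SOD1G93A and 8.14 ± 13.3 for SOD1G93A-Lepob/+ (SD, n = 4 each), so in the 3 mutant genotypes the SD exceeded the mean. Scaled to the geometric mean CPM of the mature adipocyte genes, set to 1000, Ucp1 was 262 in Lepob/+ replicate 3, 63.3 in SOD1G93A replicate 1 and 19.2 in SOD1G93A replicate 4, with the remaining 13 at 0.11 to 13.4.

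**Figure D1:**
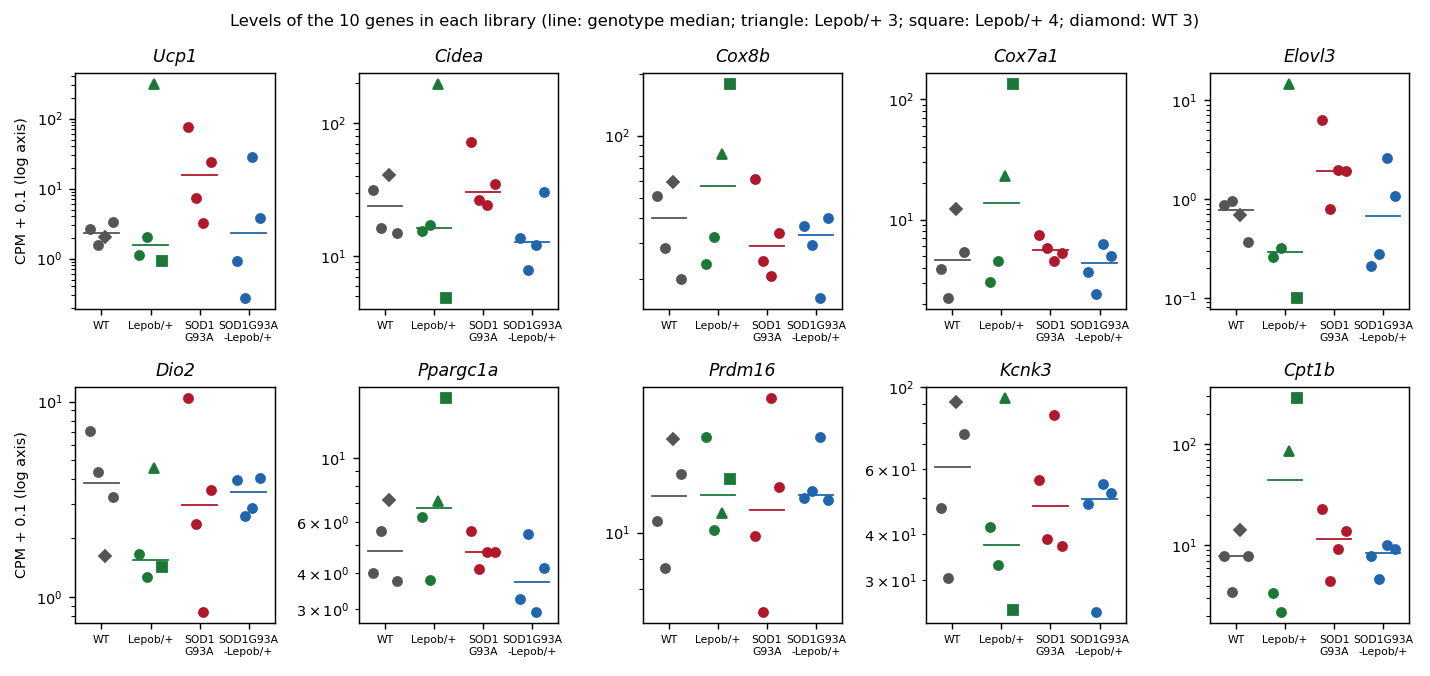
Level of each of the 10 genes (CPM + 0.1, log axis) in 4 genotypes on the horizontal axis; each point is 1 library and each line the median of 4. Ucp1, Cidea and Elovl3 were highest in Lepob/+ replicate 3 (triangle), whereas Cox8b, Cox7a1, Ppargc1a and Cpt1b were highest in Lepob/+ replicate 4 (square), and in no gene did the 4 libraries of 2 compared genotypes separate.

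Cidea, a lipid droplet protein of brown and beige adipocytes, followed Ucp1 in part, at a higher base level. It was at 31.1, 16.1, 40.5 and 14.8 CPM in WT and at 15.4, 17.0, 196 and 4.76 CPM in Lepob/+. It was at 72.1, 26.5, 24.3 and 34.4 CPM in SOD1G93A and at 13.6, 7.77, 11.95 and 30.0 CPM in SOD1G93A-Lepob/+. In SOD1G93A-Lepob/+ replicate 3, which held 9.76 times the median Ucp1, Cidea was at 0.579 of its own median. The highest 2 libraries for Cidea were the highest 2 for Ucp1, and its lowest was the muscle-rich Lepob/+ replicate 4. Elovl3, an enzyme that lengthens fatty acids in brown fat, was rare outside the same libraries. WT libraries held 0.264 to 0.865 CPM and Lepob/+ libraries 0.161, 0.22, 14.5 and 0 CPM. SOD1G93A libraries held 6.23, 0.7, 1.87 and 1.80 CPM and those with both alleles 0.111, 0.175, 2.52 and 0.983 CPM. The 0 in Lepob/+ replicate 4 allows up to 0.0999 CPM (3 counts). Over the 16 libraries the log2 CPM of Elovl3 had r = 0.85 with that of Ucp1 (rho = 0.87) and that of Cidea had r = 0.79 (rho = 0.65). These are descriptions over libraries of 4 genotypes and carry no p. Without Lepob/+ replicate 4, WT replicate 3 and the 2 libraries farthest from the Ucp1 median, 12 libraries remained, with r = 0.78 for Elovl3 and r = 0.55 for Cidea.

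Cox8b, Cox7a1 and Cpt1b form the mitochondrial group. Cox8b and Cox7a1 are subunits of cytochrome c oxidase in their heart and muscle forms, and Cpt1b is the muscle form of the enzyme that admits long-chain fatty acids to the mitochondrion. Cox8b was at 51.0, 28.3, 59.5 and 20.1 CPM in WT and at 23.6, 31.9, 81.5 and 178 CPM in Lepob/+. It was at 61.2, 24.5, 20.6 and 33.6 CPM in SOD1G93A and at 36.4, 29.3, 16.2 and 39.6 CPM in SOD1G93A-Lepob/+. The genotypes overlapped throughout, and only the Lepob/+ group had libraries above the WT range other than the 61.2 of SOD1G93A replicate 1. For Cox7a1 the WT libraries held 2.14 to 12.3 CPM, the Lepob/+ libraries 2.94, 4.47, 23.0 and 134 CPM, the SOD1G93A libraries 4.40 to 7.31 CPM and those with both alleles 2.30 to 6.15 CPM. For Cpt1b they held 3.32 to 14.2, then 3.28, 2.102, 86.3 and 288, then 4.36 to 22.8, and 4.57 to 9.89 CPM, in the same order. Both genes thus had 2 Lepob/+ libraries above the WT range, replicates 3 and 4, whereas the other 2 lay within it for Cox7a1 and below it for Cpt1b. Cpt1b shares 81.4% of its exon bases with the readthrough gene Gm44502, which is also in the table, so its counts are uncertain.

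The check against Acta1 parted those 2 Lepob/+ libraries. Acta1 was at 44650 CPM in replicate 4, the highest of 16, and at 2.96 CPM in replicate 3, the lowest of 16, where the muscle markers Ckm, Myh4 and Pvalb had 0 counts. WT replicate 3 came second, at 1298 CPM, and the other 13 libraries were at 3.39 to 92.0 CPM. The ratio of each gene to Acta1 in Lepob/+ replicate 4 was then applied to the other libraries, as if all of that gene there came from muscle. Whether muscle in the other libraries has the same ratio was not tested. At that ratio, muscle would supply at most 59.2% of the Cpt1b, 31.8% of the Cox7a1, 8.72% of the Cox8b and 6.61% of the Ppargc1a of WT replicate 3. In the 14 libraries besides these 2 the share was at most 5.60% at the same ratio, and in Lepob/+ replicate 3 at most 0.0387%, for Cox7a1. Ucp1 and Elovl3 were at 0.833 and 0 CPM in replicate 4. The same library was highest for Fabp3 (177 CPM), Ckmt2 (544 CPM) and Gpd2 (332 CPM) among 24 other brown fat effectors, and for Ucp3, the muscle uncoupling protein (162 CPM, 19.9 to 49.1 CPM elsewhere).

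**Figure D2:**
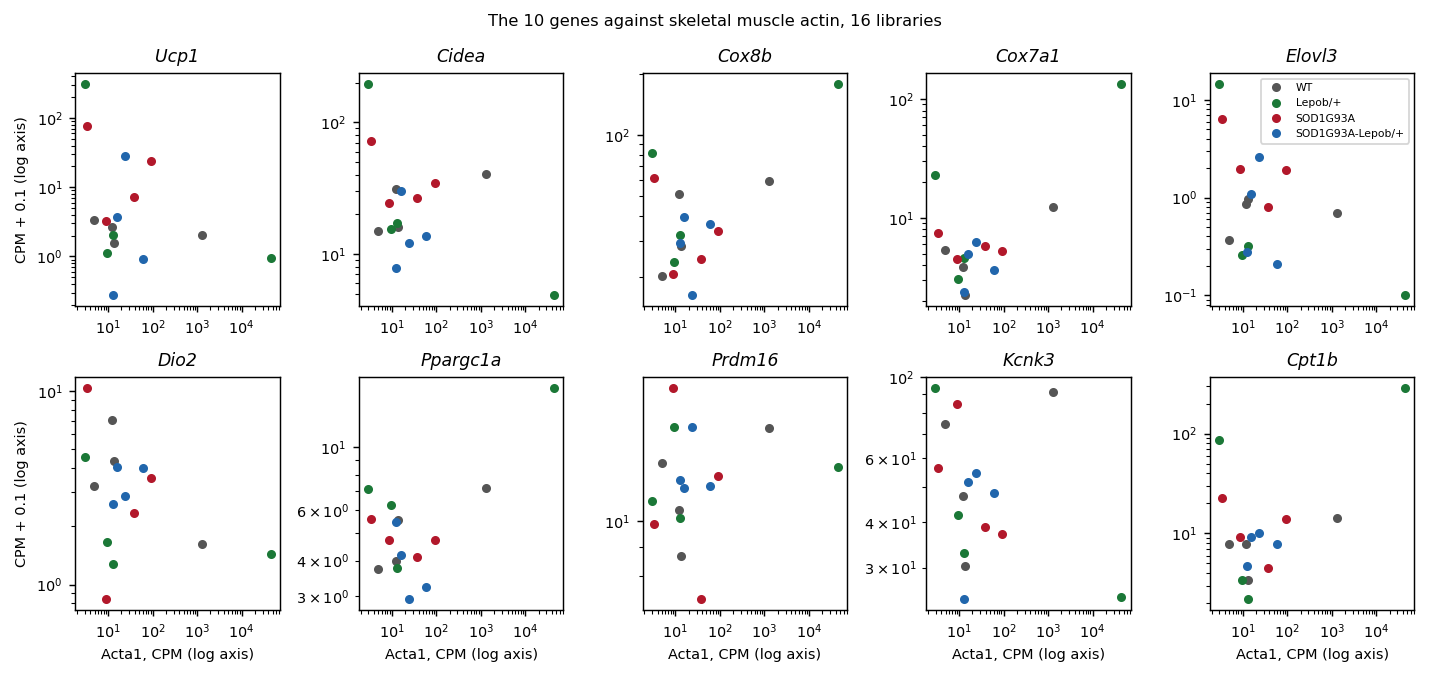
Level of each of the 10 genes (CPM + 0.1, log axis) against Acta1 (CPM, log axis), 1 point for each of 16 libraries, coloured by genotype. Lepob/+ replicate 4, at 44650 CPM of Acta1, is the top point for Cox8b, Cox7a1, Ppargc1a and Cpt1b and the bottom point for Cidea and Elovl3, while Lepob/+ replicate 3, at 2.96 CPM, is the top point for Ucp1, Cidea, Elovl3 and Kcnk3.

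With all 16 libraries, Cox7a1 had r = 0.25 with Ucp1 on the log2 CPM scale (rho = 0.57), and Cpt1b had r = 0.37 (rho = 0.43). Over the 14 libraries without Lepob/+ replicate 4 and WT replicate 3, the values were 0.90 for Cox7a1 (rho = 0.93) and 0.82 for Cpt1b (rho = 0.73). Without the 2 libraries highest in Ucp1 as well, Cox7a1 kept r = 0.81 over 12 libraries and Cpt1b had 0.54. Cox8b behaved otherwise: its r with Ucp1 was 0.11 over 16 libraries, 0.45 over 14 and -0.28 over 12. The 6 lymph-node-rich libraries included 4 of the 5 libraries with the most Ucp1, the other being SOD1G93A-Lepob/+ replicate 3, and the r of Ucp1 with the mean log2 CPM of the lymph node list was 0.56 over 16 libraries (rho = 0.37).

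**Figure D3:**
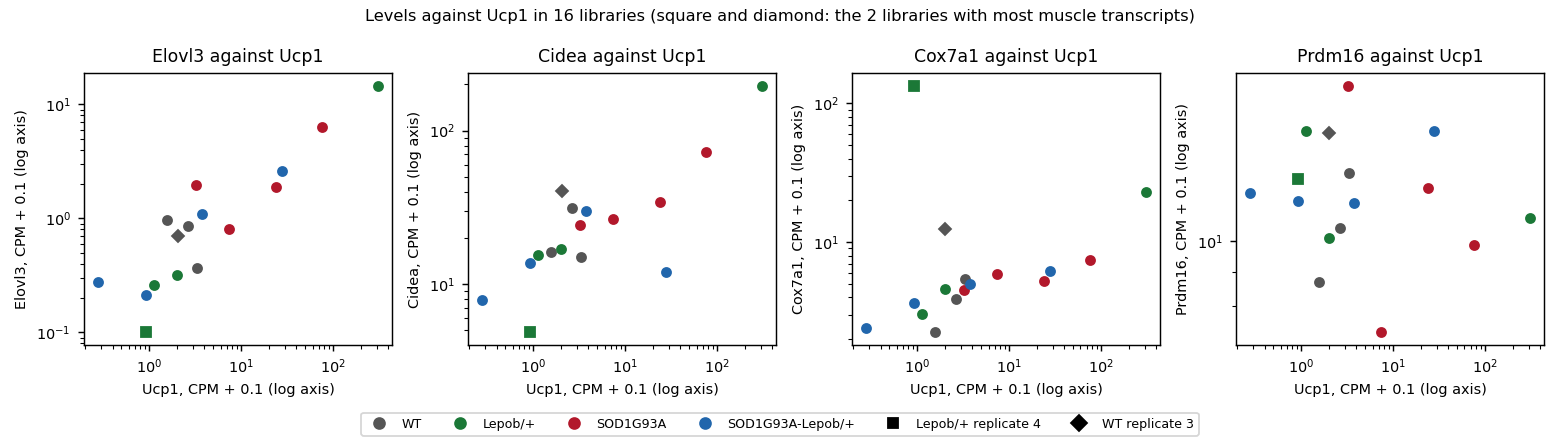
Elovl3, Cidea, Cox7a1 and Prdm16 (vertical, CPM + 0.1) against Ucp1 (horizontal, CPM + 0.1) in 16 libraries, both log axes, coloured by genotype. Elovl3 tracked Ucp1 in all libraries (r = 0.85), Cox7a1 did so apart from the 2 muscle-rich libraries drawn as a square and a diamond (r = 0.90 over 14), and Prdm16 did not (r = -0.14).

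Dio2, the deiodinase that makes active thyroid hormone within brown adipocytes, had low counts, from 0.742 to 10.3 CPM. Its highest library was SOD1G93A replicate 1 and its lowest was replicate 3 of the same genotype. In Lepob/+ it was at 1.57, 1.17, 4.47 and 1.33 CPM, against 6.995, 4.28, 1.52 and 3.15 CPM in WT, so 2 of the 4 Lepob/+ libraries lay below every WT library but the groups overlapped. Kcnk3, a potassium channel enriched in brown and beige adipocytes, ran from 24.5 to 93.5 CPM and was highest in Lepob/+ replicate 3 (93.5 CPM) and WT replicate 3 (91.1 CPM).

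The 2 regulators had far narrower ranges than Ucp1. Prdm16, a transcription factor that sets brown fat identity, spanned 7.21 to 17.0 CPM, a 2.36-fold range, with a mean of 11.5 ± 2.54 CPM for WT, 11.9 ± 2.00 for Lepob/+, 11.5 ± 4.14 for SOD1G93A and 12.2 ± 1.53 for SOD1G93A-Lepob/+ (SD, n = 4 each). The 4 means lay within 1 SD of one another. In Lepob/+ replicate 3, which held 109 times the median Ucp1 of the series, Prdm16 was at 10.7 CPM, 0.929 of its own median. Prdm16 had r = 0.75 with the mature adipocyte list and -0.68 with the lymph node list over 16 libraries. Ppargc1a, the coactivator of mitochondrial genes, was at 2.83 to 7.05 CPM in 15 libraries and at 16.02 CPM in the muscle-rich Lepob/+ replicate 4.

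Levels can be compared between genes only per kilobase of exon. By the median RPKM of 16 libraries the order was Cox8b (91.1), Cidea (18.5), Kcnk3 (11.9), Cox7a1 (9.4), Cpt1b (2.49), Ucp1 (1.75), Prdm16 (1.24), Ppargc1a (0.7), Dio2 (0.508) and Elovl3 (0.371). Neighbours in this order overlapped in their ranges. The place of Cpt1b is uncertain, since 81.4% of its exon bases are shared with Gm44502. In Lepob/+ replicate 3 Ucp1 reached 191 RPKM, above the 176 RPKM of Cidea in the same library.

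The pattern was then counted by library. In Lepob/+ replicate 3, 6 of the 10 genes were at least 2-fold above the 16-library median, against 8.51% of the 19736 genes tested. In SOD1G93A replicate 1 it was 5 of 10, against 6.91% of all genes, and in Lepob/+ replicate 4 it was 4 of 10, against 10.2%. It was 2 of 10 in SOD1G93A replicate 4 (8.17% of all genes) and SOD1G93A-Lepob/+ replicate 3 (2.53%), and 1 of 10 in WT replicates 1 (7.13%) and 3 (2.41%) and SOD1G93A replicates 2 (10.3%) and 3 (1.5%). In the remaining 7 it was 0 of 10: WT replicates 2 (6.36%) and 4 (3.12%), Lepob/+ replicates 1 (1.8%) and 2 (2.93%) and SOD1G93A-Lepob/+ replicates 1 (1.44%), 2 (1.7%) and 4 (2.03%). The highest library was Lepob/+ replicate 3 for 4 of the 10 genes and Lepob/+ replicate 4 for another 4, against 5.04% and 21.5% of all genes. Among the 15 libraries without Lepob/+ replicate 4, replicate 3 was the highest for 7 of the 10, against 6.34% of all genes. Of the 24 other brown and beige effectors, 8 were highest in Lepob/+ replicate 3, among them Acot11, a thioesterase (77.3 CPM, 4.37 to 23.2 elsewhere), Slc27a2, a fatty acid transporter (17.1 CPM, 0 to 2.15 elsewhere), Otop1 (35.6 CPM) and Plin5 (31.1 CPM).

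**Figure D4:**
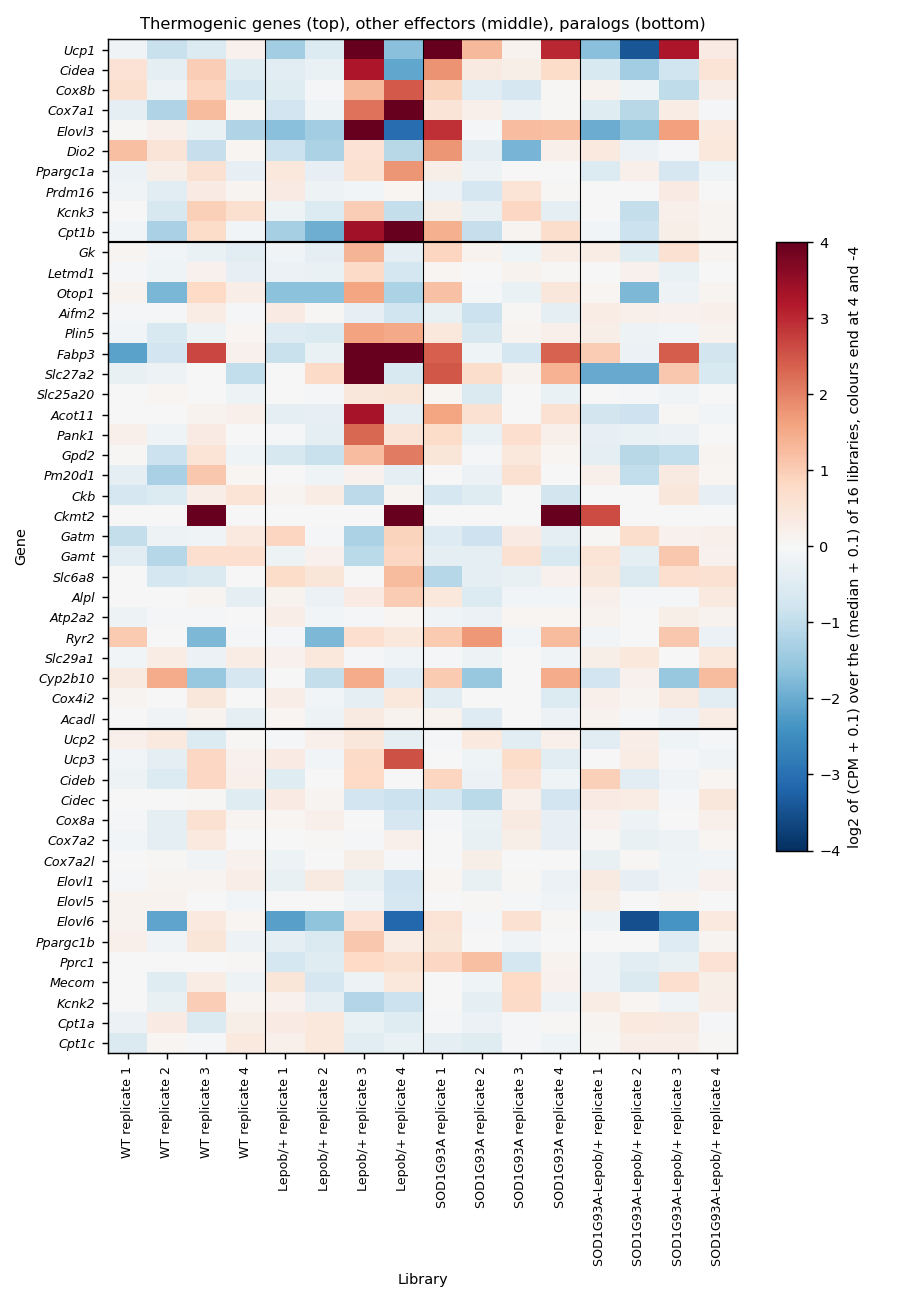
Rows are the 10 thermogenic genes (top), 24 other brown and beige effectors (middle) and 16 paralogs (bottom), columns the 16 libraries; colour is log2 of CPM + 0.1 over the gene's median + 0.1. The red block in Lepob/+ replicate 3 covers Ucp1, Cidea, Elovl3, Cpt1b, Slc27a2, Acot11 and Pank1, that in replicate 4 covers Cox7a1, Cpt1b, Fabp3, Ckmt2 and Ucp3, and among the paralogs Elovl6 varied most (33.4 to 591 CPM).

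The genes most like Ucp1 by Pearson correlation of log2 CPM, of 15771 genes with a mean of at least 1 CPM, were Acot11 (r = 0.896), Slc27a2 (0.893), Gk, glycerol kinase (0.881), Elovl3 (0.851) and Dph7 (0.830). The first 4 are lipid enzymes or transporters known from brown fat, and all 5 were highest in Lepob/+ replicate 3. The genes most like Cox8b were 6230400D17Rik (0.899), Tcaim (0.893), Idh3g (0.886), Ankrd9 (0.880) and Lrpprc (0.873), of which all 5 were highest in the muscle-rich Lepob/+ replicate 4. Prdm16 was most like Sparcl1 (0.902), Pcdhb12 (0.891), Ptprm (0.879), Adgrf5 (0.861) and Ablim3 (0.858), and its r with a list of 6 endothelial genes was 0.78. The 3 sets shared no gene.

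Most paralogs of these genes had narrower ranges than the genes themselves. Cox8a, the form of Cox8 made in most tissues, ran from 196 to 475 CPM and was lowest in Lepob/+ replicate 4, where Cox8b was highest. Cox7a2 ran from 102 to 175 CPM, a 1.72-fold range, whereas Cox7a1 had a 62.7-fold range. Cpt1a, the liver form of the carnitine transferase, spanned 80.1 to 161 CPM, and Ucp2 spanned 145 to 287 CPM. Cidec, the droplet protein of white adipocytes, was at 921 to 2690 CPM, and it was at 1142 CPM in Lepob/+ replicate 3, where Cidea was at 196. Elovl6, which makes long-chain fatty acids in lipogenesis, was the paralog with the widest range, from 33.4 to 591 CPM, and 6 libraries were below 130 CPM: WT replicate 2, Lepob/+ replicates 1, 2 and 4 and SOD1G93A-Lepob/+ replicates 2 and 3. Dio1, Dio3 and Kcnk9 were too low to be tested.

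All 16 libraries then entered 1 quasi-likelihood model in edgeR to compare genotypes, with p-values adjusted by Benjamini-Hochberg over the 19736 genes tested. All 10 thermogenic genes passed the filter on low counts. The 4 comparisons share groups, so their values are not independent of each other.

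SOD1G93A against WT asked whether the transgene alone changed the fat. None of the 10 genes was called at an adjusted p under 0.05, in a comparison with 0% of all genes called, and 0 of 10 had an unadjusted p under 0.05, against 2.56% of all genes. Ucp1 was higher in SOD1G93A by a log2 fold change of 3.58 (SE 1.87, unadjusted p = 0.077, adjusted p = 0.998), with 3 of 4 libraries above every WT library, and an exact permutation test on log2(CPM + 1) gave p = 0.0571, where the smallest possible is 0.0286. Elovl3 was higher by 2.08 (SE 1.47, adjusted p = 0.998). The other 8 differed by less than their SE, from -0.18 to 0.62, and for Prdm16 the difference was -0.00 with an SE of 0.24. Without SOD1G93A replicate 1 the Ucp1 difference was 2.31. The count with an unadjusted p under 0.05 was 2 of 10 without Lepob/+ replicate 3, a library outside this comparison. It was also 2 of 10 when edgeR was fitted to only the compared genotypes. The share of all genes in those fits is not given. Without the muscle-rich WT replicate 3, 9 of 10 differences were positive, with a median of 0.36. Fitted to only the 8 WT and SOD1G93A libraries, DESeq2 called Ucp1 (3.56, adjusted p = 0.0111) and no other of the 10, where it called 0.0626% of 22351 genes. With the lymph node list as a covariate the edgeR value was 1.29, and 3 of 4 SOD1G93A but 2 of 4 WT libraries were rich in lymph node transcripts. Scaling by the mature adipocyte genes gave a median over all genes of 0.20, against 0.02 with TMM, and made the difference positive for 10 of 10 genes in place of 5 of 10. Of the 22 other regulators tested, 24 effectors and 11 lineage markers, 0 had an unadjusted p under 0.05 here, and the smallest were 0.0828 for Adrb3, the beta-3 receptor (-0.60), and 0.113 for Cox4i2 (-0.39).

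Lepob/+ against WT asked what 1 leptin allele does in healthy mice. Again 0 of 10 genes were called, with 0% of all genes called, and 3 of 10 had an unadjusted p under 0.05, against 4.37% of all genes, all higher in Lepob/+. These were Cpt1b (log2 fold change 3.53, SE 1.16, unadjusted p = 0.00871), Cox7a1 (2.81, SE 0.96, unadjusted p = 0.0108) and Ucp1 (5.10, SE 2.01, unadjusted p = 0.0235), each with an adjusted p of 1. All 25 muscle genes were higher in Lepob/+ as well (median 5.16), 8 of them at an unadjusted p under 0.05. Beyond their SE but not past that threshold were Elovl3 (2.57), Cidea (1.19), Cox8b (0.99), Ppargc1a (0.71) and Dio2 (-0.90). Over the 10 genes 8 differences were positive with a median of 1.09, against 0.03 over all genes. Leaving out libraries moved these values. Without Lepob/+ replicate 3 the differences of Ucp1, Cidea and Elovl3 were -0.88, -1.06 and -2.22. Without replicate 4, those of Cox7a1, Cpt1b and Cox8b were 0.77, 1.89 and 0.19. Without both, a setting chosen after the data were seen, 9 of 10 differences were negative with a median of -0.69, from -1.73 for Elovl3 to 0.07 for Prdm16. By the exact permutation test on log2(CPM + 1), Ucp1 had p = 0.971, and 3 of its 4 Lepob/+ libraries were within or below the WT range. Among the other effectors 4 of 24 had an unadjusted p under 0.05, all higher: Fabp3 (5.92, unadjusted p = 0.0109), Slc6a8 (0.97, unadjusted p = 0.0119), Slc27a2 (4.33, unadjusted p = 0.0137) and Plin5 (1.06, unadjusted p = 0.03). None of 22 regulators did, and 1 of 11 lineage markers did, Tbx1 (2.72, unadjusted p = 0.0216), which was at 36.1 CPM in Lepob/+ replicate 4 and at most 3.57 CPM elsewhere.

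**Figure D5:**
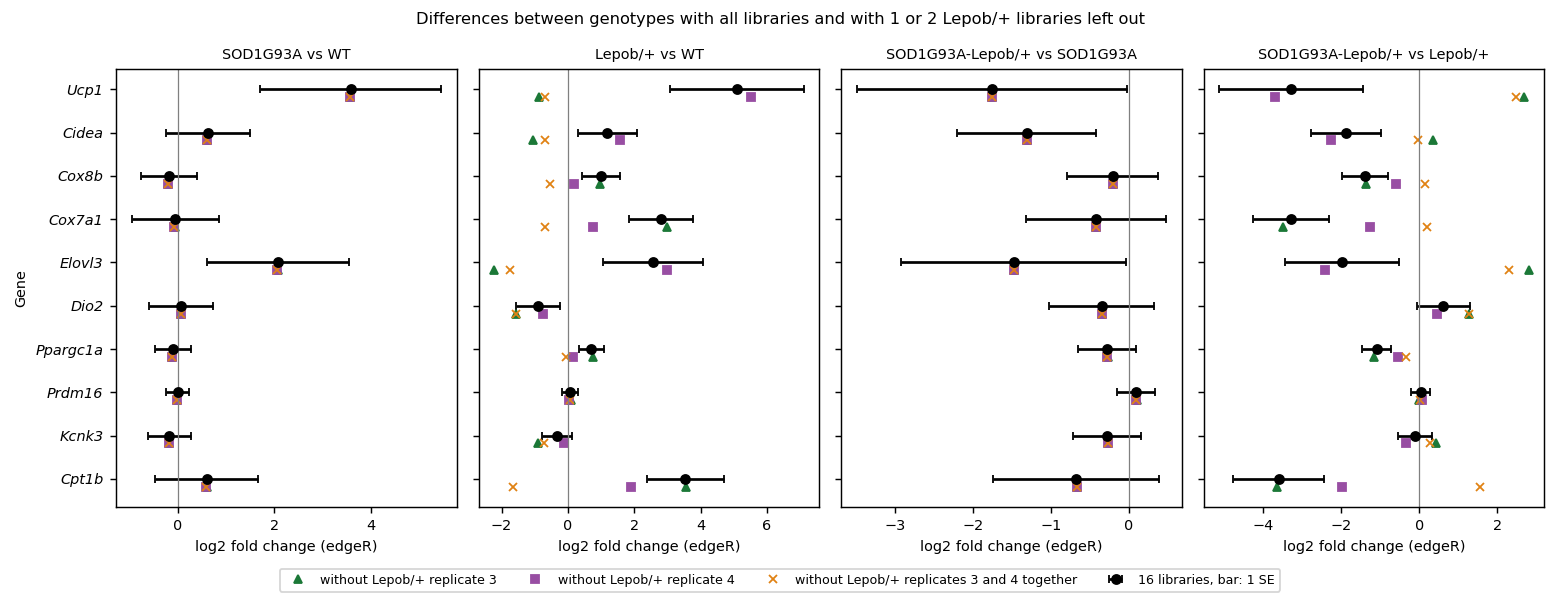
Difference between genotypes (horizontal, log2 fold change from edgeR) for each of the 10 genes (vertical), in 4 comparisons. Black points with bars of 1 SE use all 16 libraries; triangles, squares and crosses leave out Lepob/+ replicate 3, replicate 4 or both. Against WT, Ucp1 was at 5.10 with all libraries and at -0.88 without replicate 3, while Cox7a1 was at 2.81 and at 0.77 without replicate 4.

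SOD1G93A-Lepob/+ against SOD1G93A asked what the leptin allele does in diseased mice. None of the 10 genes was called, with 0% of all genes called, and 0 of 10 had an unadjusted p under 0.05, against 16.5% of all genes. For 9 of 10 genes the difference was negative (median -0.39, against 0.00 over all genes), and 3 exceeded their SE: Ucp1 (-1.76, SE 1.73, adjusted p = 0.616), Elovl3 (-1.48, SE 1.44, adjusted p = 0.609) and Cidea (-1.31, SE 0.89, adjusted p = 0.458). Without SOD1G93A-Lepob/+ replicate 3, the library with Y-linked and no Xist counts, the Ucp1 difference was -4.16 (still not called), and without SOD1G93A replicate 1 it was -0.50. By limma voom with sample quality weights, all 3 were called: Ucp1 at -4.34 (adjusted p = 0.0153), Cidea at -1.60 (adjusted p = 0.022) and Elovl3 at -3.05 (adjusted p = 0.0255), in a comparison where that tool called 31.5% of all genes. No SOD1G93A-Lepob/+ library and 3 of 4 SOD1G93A libraries were rich in lymph node transcripts, so genotype and lymph node content cannot be told apart in this pair. Of 15 lymph node genes, 14 had an unadjusted p under 0.05, and with that list as a covariate the Ucp1 and Elovl3 differences were 1.85 and 0.18. Among other lists, Ehmt1 (-0.38, unadjusted p = 0.017) and Adrb1 (0.61, unadjusted p = 0.0304) of 22 regulators and Aifm2 (0.56, unadjusted p = 0.0247) and Slc29a1 (0.39, unadjusted p = 0.0257) of 24 effectors had an unadjusted p under 0.05. So did 2 of 11 lineage markers, both lower in SOD1G93A-Lepob/+: Epsti1 (-2.23, unadjusted p = 0.0142) and Tnfrsf9 (-2.33, unadjusted p = 0.0417).

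SOD1G93A-Lepob/+ against Lepob/+ completed the square. Here 0 of 10 genes were called, with 0% of all genes called, and 4 of 10 had an unadjusted p under 0.05, all lower in SOD1G93A-Lepob/+, against 8.24% of all genes. They were Cox7a1 (-3.28, SE 0.98, unadjusted p = 0.00464), Cpt1b (-3.60, SE 1.16, unadjusted p = 0.00783), Ppargc1a (-1.09, SE 0.38, unadjusted p = 0.012) and Cox8b (-1.38, SE 0.59, unadjusted p = 0.0336), with adjusted p of 0.597 to 0.602. These are the 4 genes that were highest in the muscle-rich Lepob/+ replicate 4, and 23 of the 25 muscle genes had an unadjusted p under 0.05 in the same direction. Without that library they were -1.26, -1.97, -0.54 and -0.59. DESeq2 on all libraries called Cox7a1 (adjusted p = 0.033) and Cpt1b (adjusted p = 0.0495), where it called 0.232% of 30159 genes. Ucp1 (-3.28), Cidea (-1.88) and Elovl3 (-1.97) were also lower, and without Lepob/+ replicate 3 they were 2.69, 0.36 and 2.81. That library was rich in lymph node transcripts, and 14 of the 15 genes of that list had a negative difference with an unadjusted p under 0.05 (median -4.49 over the 15). Without both libraries 8 of 10 differences were positive, with a median of 0.24.

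Taking both alleles together, carriers of SOD1G93A differed from non-carriers in 0 of 10 genes by adjusted p, with 0% of all genes called, and 2 of 10, Cox7a1 (-1.67) and Ppargc1a (-0.59), had an unadjusted p under 0.05, against 3.2% of all genes. In the same comparison 18 of 25 muscle genes were lower at that threshold, and the count of thermogenic genes was 0 without Lepob/+ replicate 4, without WT replicate 3 and without both. It rose to 4 without Lepob/+ replicate 1, without replicate 2 and without replicate 3. Without Lepob/+ replicates 3 and 4 together it was 3, and 7 of the 10 differences were positive. The share of all genes in the fits that left out libraries is not given. Their counts therefore cannot be read as particular to the 10 genes. Carriers of Lepob/+ differed from non-carriers in 0 of 10 by either (0% and 9.64% of all genes). The unadjusted count was 2 without Lepob/+ replicate 1, without replicate 2 and without replicate 3. It was 0 without replicate 4 and 3 by limma voom. With all libraries 7 of 10 differences were positive, whereas 9 of 10 were negative by limma voom and without Lepob/+ replicates 3 and 4 together. Shares of all genes at that threshold are not given for these fits. The interaction, which asks whether the leptin allele acted differently with and without the transgene, was called for 0 of 10 genes (0% of all genes) and had an unadjusted p under 0.05 for 3 of 10, namely Ucp1, Cox7a1 and Cpt1b (7.98% of all genes), and for 6 of 25 muscle and 12 of 15 lymph node genes, all negative. For the 10 genes the count was 0 without Lepob/+ replicates 3 and 4 together and 2 without replicate 3. It was 5 without Lepob/+ replicate 1, 6 without replicate 2 and 7 under scaling by the mature adipocyte genes. For these fits, too, the share of all genes is not given. For Ucp1 the interaction was -6.85 on the log2 scale (SE 2.62, unadjusted p = 0.0204, adjusted p = 0.564), and without Lepob/+ replicate 3 it was -0.87.

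In none of the 4 comparisons did the 4 libraries of one genotype lie apart from those of the other for any of the 10 genes. Over all genes tested, groups lay apart for 2.06% in SOD1G93A against WT, 0.907% in Lepob/+ against WT, 7.18% in SOD1G93A-Lepob/+ against SOD1G93A and 2.35% in SOD1G93A-Lepob/+ against Lepob/+. By the other tools, 0 of 10 genes were called wherever no call is given above. DESeq2 on all libraries called 0.00976% of genes in SOD1G93A against WT, 0.00325% in Lepob/+ against WT, 2.85% in SOD1G93A-Lepob/+ against SOD1G93A, 0.137% for SOD1G93A carriers, 0.237% for Lepob/+ carriers and 0.205% for the interaction. DESeq2 on the compared genotypes called 0.0174% in Lepob/+ against WT, 7.95% in SOD1G93A-Lepob/+ against SOD1G93A and 0.176% in SOD1G93A-Lepob/+ against Lepob/+. Limma voom called 0.0101% in the last of these, 20.5% for Lepob/+ carriers, 31.5% in SOD1G93A-Lepob/+ against SOD1G93A as given above, and 0% in the other 4 comparisons. Nothing in the labels says whether the 4 libraries of a group came from separate litters or days, so p-values measure the spread between these libraries.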

How the data were processed

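iWAT RNA of 16 mice was sequenced by a company. The authors' reads were trimmed with fastp, aligned to mm10 with HISAT2 2.1.0 and counted, where uniquely aligned, with featureCounts 2.0.2. The authors deposited raw counts per gene, used here unchanged. The labels and the methods name different library kits, and the strand setting is not given in the sources used here, so overlapping antisense genes cannot be told apart. Gene positions and exon lengths came from GENCODE M21 (GRCm38), promoters from RefSeq (GRCm38.p6).

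Genes were filtered by filterByExpr (minimum count 10, minimum total 15), scaled by TMM and tested with edgeR 4.0.16 (R 4.3.3), robust quasi-likelihood, 12 residual degrees of freedom, Benjamini-Hochberg threshold 0.05. No replicate block was used. Single genes had a two-sided exact permutation test on log2(CPM + 1), 40 tests in all, with adjusted p of 0.816 or more. DESeq2 1.42.0 and limma 3.58.1 were alternatives. The script was tested on simulated counts. The 0 limit is 3 counts, for counting error only.

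The 10 genes and all lists were chosen with earlier results of these data known. Genes named were the 10, their paralogs, Acta1, up to 4 of each list by p, and the 5 genes most like Ucp1, Cox8b and Prdm16. Markers used only to describe libraries (Adipoq, Plin1, Lep, Xist, the Y-linked genes, Krt10, Ckm, Myh4, Pvalb) and further effectors named by their highest library (Ckmt2, Gpd2, Otop1, Acot11, Pank1) were picked after their values were seen.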

Additional observations from a re-analysis of the deposited data

Results flagged for a closer look

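In 7 of the 40 sets of 4 libraries (10 genes by 4 genotypes), 1 library lay far from the other 3 by Dixon's test on CPM at the 95% level. Chance alone flags about 1 of 20 sets only where values are normal and sets independent. CPM was not log-transformed and the 10 genes share libraries, so that rate is not a measure for these 40 sets. Lepob/+ replicate 3 stood apart in Ucp1 (312.6 CPM), Cidea (196.4 CPM), Elovl3 (14.5 CPM) and Dio2 (4.469 CPM), each time above the other 3 Lepob/+ libraries. Lepob/+ replicate 4 stood apart in Cox7a1 (134.1 CPM), with Acta1 at 44650 CPM. SOD1G93A-Lepob/+ replicate 3, the library with Y-linked and 0 Xist counts, stood apart in Ucp1 (27.91 CPM) and Prdm16 (14.49 CPM).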

How the results depend on the processing

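The number of the 10 genes called by adjusted p was 0 in 198 of 201 counts from alternative fits over 7 comparisons. A fit gave 1 count for each comparison it covered, so the fits were fewer than the counts. The number was 0 in every fit that left out 1 library (lowest and highest 0). The main fit called 0% of all genes in each of the 7 comparisons, so a count of 0 is not particular to these 10. The exceptions were DESeq2 on the compared genotypes for SOD1G93A against WT (1 gene), limma voom for SOD1G93A-Lepob/+ against SOD1G93A (3 genes) and DESeq2 on all libraries for SOD1G93A-Lepob/+ against Lepob/+ (2 genes: Cox7a1 at -3.31 and Cpt1b at -3.63). Of 625 alternative values of 21 fold changes, 589 kept their direction and their side of the threshold, 6 were called where the main value was not, and 30 changed sign. The cause was not tested.

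For Lepob/+ against WT, leaving out 1 library gave ranges of -0.88 to 5.51 for Ucp1, -1.06 to 1.56 for Cidea and -2.22 to 2.98 for Elovl3. Without Lepob/+ replicates 3 and 4 together, chosen after seeing the data, the values were Ucp1 -0.68, Cidea -0.69, Cox8b -0.54, Cox7a1 -0.69, Elovl3 -1.73, Ppargc1a -0.06 and Cpt1b -1.64. By limma voom they were Cidea -0.18, Cox8b -0.08, Elovl3 -1.38 and Cpt1b -0.35. For SOD1G93A-Lepob/+ against Lepob/+, leaving out 1 library gave -5.68 to 2.69 for Ucp1, -2.39 to 0.36 for Cidea and -3.15 to 2.81 for Elovl3. Without both Lepob/+ libraries the values were Ucp1 2.48, Cox8b 0.14, Cox7a1 0.20, Elovl3 2.31 and Cpt1b 1.55, with the lymph node covariate Ucp1 0.82 and Elovl3 0.40, and by limma voom Elovl3 0.21 and Cpt1b 0.69. For SOD1G93A-Lepob/+ against SOD1G93A the lymph node covariate gave Ucp1 1.85 and Elovl3 0.18. Apart from the ranges, single values in this paragraph are given only where the sign changed.

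No label pairs the mice by replicate number. Of 24 same-numbered pairs, 5 had deviations correlated above 0.1 and 8 below -0.1. Those values cannot decide whether mice shared litters or days, since tissue content also differed between libraries. With the replicate block, 0 of the 10 genes were called in any comparison. The share of all genes called with the block is not given, and the main fit without it called 0%. The Ucp1 difference of Lepob/+ against WT was 1.53 with the block. With the block on the compared genotypes only it was 0.18, and Cidea (-0.15) and Elovl3 (-1.16) changed sign. Under scaling by the adipocyte list the median of all genes was 0.20, 0.16, -0.48 and -0.51 in the 4 pairwise comparisons, against 0.02, 0.03, 0.00 and -0.06 with TMM. On CPM in place of log2(CPM + 1), the Ucp1 permutation p stayed above 0.05 in all 4. At totals of 36.8 M to 61.9 M counts, a count of 0 allows 0.068 to 0.0999 CPM in the libraries where it was used.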
